A study of Mus musculus with 16 samples.

Results

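Acute injury of the kidney is followed clinically through proteins that leave the kidney in urine or blood, and 8 genes that encode such proteins were described here in mouse kidneys after cisplatin: Havcr1, Lcn2, Spp1, Clu, Gdf15, Timp2, Igfbp7 and Cst3. The genes were taken by symbol as a fixed list, and all 8 were found among the 46078 genes of the deposited table. This list and those of related genes below were chosen with earlier results of these data known. Their counts and medians beside those of all genes are therefore a description and no test. Cisplatin is a platinum drug used against tumours that damages the kidney tubule. The design asked whether calorie restriction or repeated low oxygen given ahead of the drug changed the transcriptional response of the kidney.

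All mice were of the strain C57BL/6 and 20 weeks old, no engineered allele is named in the labels, and kidneys were collected 72 h after an intraperitoneal injection. Mice that had no preconditioning were given either 0.9% sodium chloride (the vehicle group) or cisplatin (the cisplatin alone group). In the calorie restriction group, mice were kept on a restricted diet for 4 weeks and were then given cisplatin. In the hypoxia group, mice breathed low oxygen for 2, 4 and 8 h on consecutive days, rested for at least 1 h and were then given cisplatin. No group combined a preconditioning with saline, so what calorie restriction or hypoxia does to these genes without the drug was not measured. Animals were perfused with buffered saline, which clears blood, before the kidneys were frozen, and total RNA was depleted of ribosomal RNA. Each group had 4 libraries, 16 in all. Whether the libraries of a group came from separate mice is not said in the labels, so p-values measure the spread between these libraries, which may be technical.

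The proteins fall into classes that differ in how they report injury. KIM-1, the product of Havcr1, is a membrane receptor that injured proximal tubule cells place on their surface and shed into urine. NGAL (Lcn2), osteopontin (Spp1) and clusterin (Clu) are secreted proteins whose genes are switched on in damaged nephron segments, and GDF15 is a stress-induced circulating cytokine. TIMP-2 and IGFBP7 are used together as a urinary marker of tubular cell stress, and cystatin C (Cst3), made by most cells, is read in blood because its level rises when filtration falls. RNA in the tissue reports only the first step of this chain: the amount secreted, shed or filtered was not measured.

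Levels are given in TPM, reads of a gene divided by its exon length and scaled to 1000000 per library, so that levels can be compared between genes. Read counts recovered from the TPM values came to between 53802239 and 68488047 per library. The lowest value of any of the 8 genes, 0.306 TPM of Havcr1 in a vehicle library, rested on 29 reads. Differences are on the log2(TPM + 1) scale, which understates the change of genes near 1 TPM, and were tested with limma over the 15014 genes that reached 1 TPM in at least 4 libraries. A gene is called where the Benjamini-Hochberg adjusted p is under 0.05. All 8 genes were among those tested, although Havcr1 and Lcn2 reached 1 TPM in only 10 and 9 of the 16 libraries. In RNA of whole tissue, fewer cells of a type and less RNA per cell cannot be told apart.

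The hypoxia libraries differed from each other far more than those of any other group. Hypoxia library 4 and calorie restriction library 4 were the closest pair of all, although their labels put them in different groups: their counts differed with a variance 1.97 times that of sampling, against at least 3.65 times for every other pair. That is more than sampling noise, so both were kept as samples. Whether the library labelled hypoxia 4 came from a kidney that hardly responded to the drug or carries a wrong label cannot be told apart here, and every mean and spread of the hypoxia group holds it. The differences of Havcr1, Lcn2, Gdf15, Spp1 and Clu that were called in hypoxia comparisons are therefore also given without it. Most other hypoxia values, among them coefficients of variation, mean positions and related genes, are given only with it. Proximal tubule markers (15 genes) summed to 26097 to 32268 TPM in the vehicle group and 2345 to 2841 TPM in the cisplatin alone group. In the groups given cisplatin after preconditioning they summed to 27322 to 29961 TPM with calorie restriction and 3017 to 29671 TPM with hypoxia, so that the calorie restriction libraries and hypoxia library 4 lay inside the vehicle range. None of the 15 genes was at 0 in every library of a group. Library titles carry a prefix that divides the samples into a set of 5 (all of cisplatin alone and calorie restriction library 1) and the rest, so that prefix and group can hardly be told apart. A term for the prefix in a fit rests on calorie restriction library 1 beside the rest of its group. What the prefix stands for is not said in the labels.

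RefSeq start sites (build GRCm38.p6) were found for 7 of the 8 genes by symbol. The regions before 3 of them are printed, because only these hold no exon bases of the GENCODE M21 annotation. They belong to Igfbp7, which stayed between 440 and 719 TPM over the 16 libraries, and to Spp1 and Gdf15, which both rose after cisplatin alone. Each is the 250 bases before the start site, 5′ to 3′ on the strand of the gene, with CG pairs in capitals.
Spp1, plus strand, chr5:104434861-104435110: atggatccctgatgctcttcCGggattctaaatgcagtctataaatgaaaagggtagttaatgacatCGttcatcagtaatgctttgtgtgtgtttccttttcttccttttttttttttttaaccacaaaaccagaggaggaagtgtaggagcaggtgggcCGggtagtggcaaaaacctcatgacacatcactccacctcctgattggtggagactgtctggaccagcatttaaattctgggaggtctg
Gdf15, minus strand, chr8:70632457-70632706: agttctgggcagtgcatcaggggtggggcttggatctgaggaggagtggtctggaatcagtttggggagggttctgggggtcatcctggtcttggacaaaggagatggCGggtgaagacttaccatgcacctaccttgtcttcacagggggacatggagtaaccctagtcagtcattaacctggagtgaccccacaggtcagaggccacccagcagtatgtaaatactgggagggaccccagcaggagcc
Igfbp7, minus strand, chr5:77408046-77408295: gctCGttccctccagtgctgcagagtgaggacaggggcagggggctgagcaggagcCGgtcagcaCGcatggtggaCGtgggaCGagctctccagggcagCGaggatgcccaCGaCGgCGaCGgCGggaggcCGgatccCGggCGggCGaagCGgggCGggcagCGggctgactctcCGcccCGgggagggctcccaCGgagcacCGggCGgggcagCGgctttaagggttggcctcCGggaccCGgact
The stretch before Igfbp7 held 26 CG pairs and was 74.0% G and C. Those before Spp1 and Gdf15 held 3 and 1 pairs and were 43.6% and 56.4% G and C. Of the regions not printed, that of Timp2 held 21 pairs, that of Cst3 8, and those of Havcr1 and Lcn2 3 each, beside a median of 6 over all RefSeq promoters in the table. Of their 250 bases, 162 lay in annotated exons for Havcr1, 197 for Lcn2, 203 for Timp2 and 125 for Cst3. Their RefSeq start sites lay 5143, 513, 329 and 180 bases from the GENCODE 5′ end of the gene, in that order. Counts for these genes thus rest in large part on exon sequence. The 4 genes that varied most thus had few CG pairs and Igfbp7 and Timp2 had many, a description of 7 genes with no test.

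The same windows, with 50 bases after the start added, were searched on both strands for 6 sequence patterns. These were the NF-kappa B site, the STAT site TTCNNNGAA, the AP-1 site TGANTCA, the cyclic AMP response element TGACGTCA, the TATAAA box and the decamer bound by p53. The response element contains the 3 letters that also open the AP-1 site, and no match was counted under both. The only match in the 7 windows was TATAAA in Spp1, at positions -211 to -206 from the start site. Of all 32851 promoters of this length in the table, 13.6% held TATAAA, 8.46% the NF-kappa B site, 8.30% the STAT site, 7.81% the AP-1 site, 1.79% the response element and 8.36% the p53 decamer. Absence of a match says only that these letters are not in these 300 bases.

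**Figure D1:**
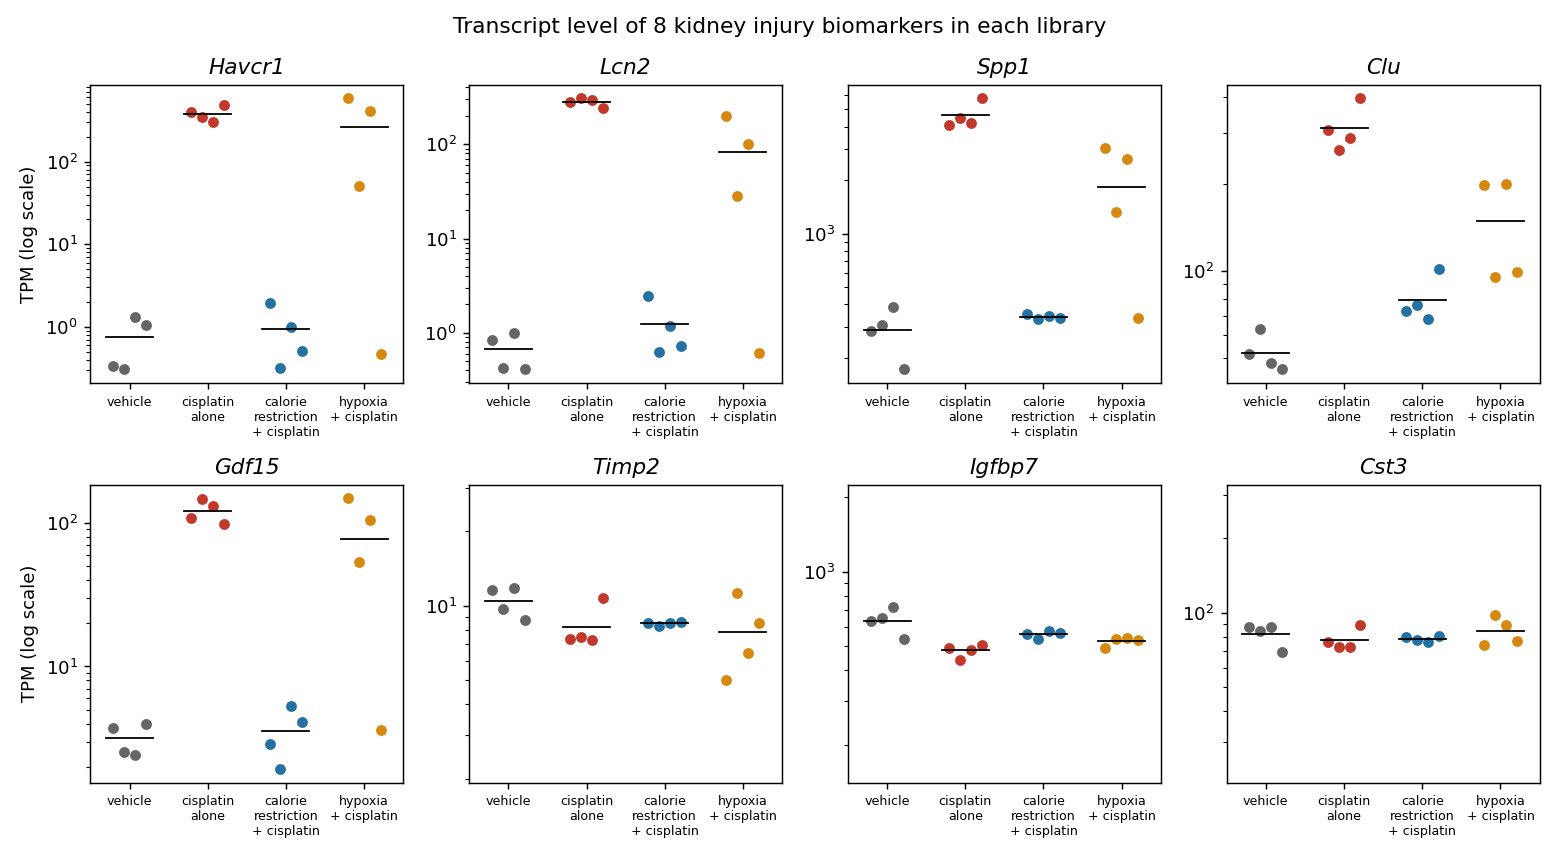
Level of each of the 8 biomarker genes in each library, in TPM on a log axis, by group; points are libraries in the order 1 to 4 and the line is the group mean. Havcr1, Lcn2, Spp1, Clu and Gdf15 stood higher in all 4 cisplatin alone libraries than in any vehicle or calorie restriction library, while hypoxia libraries ranged from one to the other (Havcr1 from 0.473 to 582 TPM); Timp2, Igfbp7 and Cst3 stayed in a narrow range, drawn over 16-fold for each of them.

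After cisplatin alone, transcripts of the shed receptor and the secreted injury proteins rose steeply, by between 6.04-fold for Clu and 505-fold for Havcr1. Those of the stress pair and cystatin C did not rise. Of the 8 genes, 5 were called higher against vehicle (Havcr1, Lcn2, Gdf15, Spp1 and Clu) and 1 lower (Igfbp7). The response reached much of the transcriptome: 38% of all genes tested were called higher and 28.8% lower, so being called is a common property here and the sizes of the changes carry more than the count. The groups did not overlap for 6 of the 8 genes, against 63.5% of all genes tested. The median difference of the 8 genes was 3.31, beside 0.08 over all genes tested, which is a description of a list chosen with these data known.

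Havcr1 (ENSMUSG00000040405, chr11:46735080-46779578 of GRCm38) was at 0.339, 0.306, 1.33 and 1.06 TPM in the 4 vehicle libraries and at 400.0, 344, 298 and 489 TPM in those of cisplatin alone. The gene was close to silent in kidneys given saline, and every library given the drug alone lay far above every vehicle library. The difference was 7.79 ± 1.30 (SE), with limma adjusted p = 0.000165. With the title prefix as a term it was 6.90 and was no longer called (limma adjusted p = 0.0637).

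Lcn2 (ENSMUSG00000026822, chr2:32384633-32388252), which encodes a carrier of iron-binding siderophores, was at 0.841, 0.428, 0.987 and 0.409 TPM with vehicle and at 280, 305, 292 and 243 TPM with cisplatin alone. Its 4 values after the drug lay within a factor of 1.26 of each other, the tightest of the genes that rose. The difference was 7.41 ± 1.01, limma adjusted p = 5.76e-05. Lcn2 is also a granule gene of neutrophils. The 11 neutrophil markers summed to 0.448 to 0.838 TPM with vehicle and 6.02 to 8.52 TPM with cisplatin alone. Only S100a8 and S100a9 were abundant enough to be tested, and both were called higher in limma; S100a9 went from a mean of 0.154 to 2.97 TPM. Of the untested markers, Csf3r went from 0.255 to 1.03 TPM, Retnlg from 0.011 to 0.746 TPM and Ly6g from 0 to 0.097 TPM. The granule gene Mpo was at 0 in every vehicle library and at a mean of 0.0018 TPM after the drug. Ltf alone of the 11 markers had a lower mean after the drug, at 0.081 TPM beside 0.151 TPM with vehicle. The part of these cells in the Lcn2 level was not tested.

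Spp1 (ENSMUSG00000029304, chr5:104435118-104441050), an adhesion protein that binds integrins and CD44, was the most abundant of the 8 after the drug. It stood at 283, 306, 385 and 172 TPM with vehicle and at 4081, 4486, 4173 and 5752 TPM with cisplatin alone. Its difference was 4.05 ± 0.50, limma adjusted p = 4.55e-05. Spp1 made up 70.9 to 75.8% of the summed TPM of the 8 genes in the cisplatin alone libraries and 20.6 to 30.6% in the vehicle libraries. Its exons share 309 bases with the predicted gene Gm42793 on the same strand, where reads cannot be assigned to 1 gene; Gm42793 itself reached at most 19.5 TPM.

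Clu (ENSMUSG00000022037, chr14:65968483-65981547) encodes a secreted chaperone and had a clear baseline, at 51.4, 62.7, 47.9 and 45.6 TPM with vehicle. It reached 308, 263, 287 and 395 TPM with cisplatin alone, so the groups stood apart but the fold was the smallest of the genes that rose. The difference was 2.57 ± 0.24, limma adjusted p = 2.21e-05.

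Gdf15 (ENSMUSG00000038508, chr8:70629393-70632456) was at 3.73, 2.53, 2.41 and 3.96 TPM with vehicle and at 107, 147, 130 and 98.2 TPM with cisplatin alone. The rise was 38.2-fold on the TPM means and 4.87 ± 0.76 on the log2 scale, limma adjusted p = 0.000104. Gfral, which encodes the brainstem receptor for GDF15, was listed at 0 in all 16 libraries.

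Macrophages can make osteopontin, clusterin and GDF15. The 12 macrophage markers summed to 46.8 to 63.6 TPM with vehicle and 115 to 137 TPM with cisplatin alone. That sum moved through Cd68 (1.72 ± 0.24 to 56.7 ± 11.3 TPM, mean ± SD, n = 4) and Cd14 (1.80 ± 0.54 to 26.2 ± 3.85 TPM), whereas Csf1r, the lineage receptor, was lower after the drug (12.6 ± 1.71 to 4.04 ± 1.22 TPM). Of 10 macrophage markers tested, 3 were called higher and 2 lower in limma; none of the 12 was at 0 in every library of a group, and their part in the results was not tested. Lymphocyte markers (8 genes) summed to at most 2.08 TPM in any library and none was abundant enough to be tested. Of the B cell markers among them, Ms4a1 was at 0 in every cisplatin alone library, whereas Cd79a was at 0.557 to 0.861 TPM there and at 0.050 to 0.099 TPM with vehicle.

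Neither gene of the stress pair rose. Igfbp7 (ENSMUSG00000036256, chr5:77349240-77408041) encodes a secreted protein that binds insulin-like growth factors. It stood at 632, 653, 719 and 535 TPM with vehicle and at 492, 440, 484 and 508 TPM with cisplatin alone. Every vehicle library was above every cisplatin alone library, although the lowest vehicle value lay close to the highest after the drug. The difference was -0.39 ± 0.09, limma adjusted p = 0.00213, and the call was lost with the title prefix as a term (-0.40, adjusted p = 0.125). The difference was -0.24 (adjusted p = 0.0182) after abundant, mitochondrial and red blood cell genes were left out and TPM rescaled, a scaling that moved the median difference of all genes from 0.08 to 0.24 and the share of calls that were higher from 56.9% to 67.3%. Its exons share 85 bases with Polr2b on the other strand, and the strand setting of the counting is not given in the sources used here.

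Timp2 (ENSMUSG00000017466, chr11:118301069-118355740), an inhibitor of matrix metalloproteinases, was at 11.6, 9.68, 11.8 and 8.74 TPM with vehicle and at 7.37, 7.48, 7.26 and 10.8 TPM with cisplatin alone. Library 4 of cisplatin alone lay among the vehicle values and the other 3 lay below all of them. The difference was -0.32 (95% interval -0.71 to 0.06), limma adjusted p = 0.127. Without that library it was -0.44 and passed the threshold (limma adjusted p = 0.0438). Cst3 (ENSMUSG00000027447, chr2:148871722-148875692), an inhibitor of cathepsins, was at 87.9, 84.8, 87.9 and 69.4 TPM with vehicle and at 76.5, 72.7, 72.5 and 89.1 TPM with cisplatin alone. These values overlapped. The difference was -0.08 (95% interval -0.31 to 0.14), adjusted p = 0.490 in limma, and its sign turned to 0.07 under the rescaling described for Igfbp7.

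The product of TIMP-2 and IGFBP7 is the form in which the pair is read in urine, and the same product of the transcripts was 6708 ± 1622 (TPM times TPM) with vehicle and 3977 ± 1005 with cisplatin alone. It ranged from 4675 to 8499 with vehicle and from 3295 to 5470 with cisplatin alone. Those ranges overlapped through vehicle library 4 and cisplatin alone library 4. Calorie restriction libraries lay between 4469 and 4914 and hypoxia libraries between 2470 and 6021, so no group stood apart on this product.

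Genes related to the 8 by family or function were counted in the same comparison, in which 38% of all genes tested were called higher and 28.8% lower. Of 18 other urinary or serum biomarkers tested, 9 were called higher and 3 lower, with a median difference of 0.52. The 3 lower were all segment genes: Egf (188 ± 25.3 to 3.63 ± 1.42 TPM), Umod, which encodes uromodulin of the thick ascending limb (1442 ± 324 to 260 ± 128 TPM), and Calb1. Timp1, a relative of Timp2, rose from 0.301 ± 0.037 to 13.9 ± 3.70 TPM (limma adjusted p = 4.18e-05), while Timp3 fell from 253 ± 11.1 to 87.8 ± 6.66 TPM (adjusted p = 4.95e-05). Of 5 tested TIMP and metalloproteinase genes, 3 were called higher and 1 lower.

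Of the 6 relatives of Igfbp7, from Igfbp1 to Igfbp6, 4 were called lower and 0 higher, with a median of -0.90. Igfbp4 went from 168 ± 12.6 to 66.8 ± 11.9 TPM and Igfbp5 from 76.3 ± 14.6 to 19.4 ± 1.81 TPM, differences of -1.33 and -1.91 beside -0.39 for Igfbp7. Among 9 cystatin and cathepsin genes, 4 were called higher and 2 lower, close to the shares over all genes. Cstb, an intracellular cystatin, rose from 44.4 ± 1.07 to 216 ± 9.76 TPM (limma adjusted p = 0.000132), unlike Cst3; the difference between those changes was not tested.

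Of 14 receptors and sheddases of the 8 proteins that were tested, 6 were called higher and 6 lower, not far from the 38% and 28.8% of all genes. Transcripts of the scavenger receptors that take filtered proteins back into the proximal tubule fell. Lrp2 went from 498 ± 20.4 to 51.3 ± 12.4 TPM and Cubn from 98.2 ± 1.65 to 19.5 ± 3.88 TPM. Among receptors of osteopontin, Itgb3 rose by 1.64 on the log2 scale and Cd44 from 0.279 ± 0.071 to 7.98 ± 4.03 TPM, whereas Itgb5 fell from 31.9 to 25.3 TPM. A list of 19 regulators held transcription factors of these genes or of stress and the cell cycle inhibitors Cdkn1a and Cdkn1b. Of the 19, 18 were called higher and 1 lower (Cdkn1b), with a median of 1.41 beside 0.08 for all genes tested. As this list was chosen with earlier results of these data known, its counts are no test. Cebpb, Stat3 and Rela, factors of the acute-phase and NF-kappa B responses, went from 7.89 ± 1.97 to 49.4 ± 4.72, 8.25 ± 0.88 to 24.8 ± 1.58 and 9.18 ± 0.74 to 26.4 ± 1.46 TPM. Cdkn1a, a p53 target, went from 1.02 ± 0.47 to 177 ± 3.77 TPM.

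**Figure D2:**
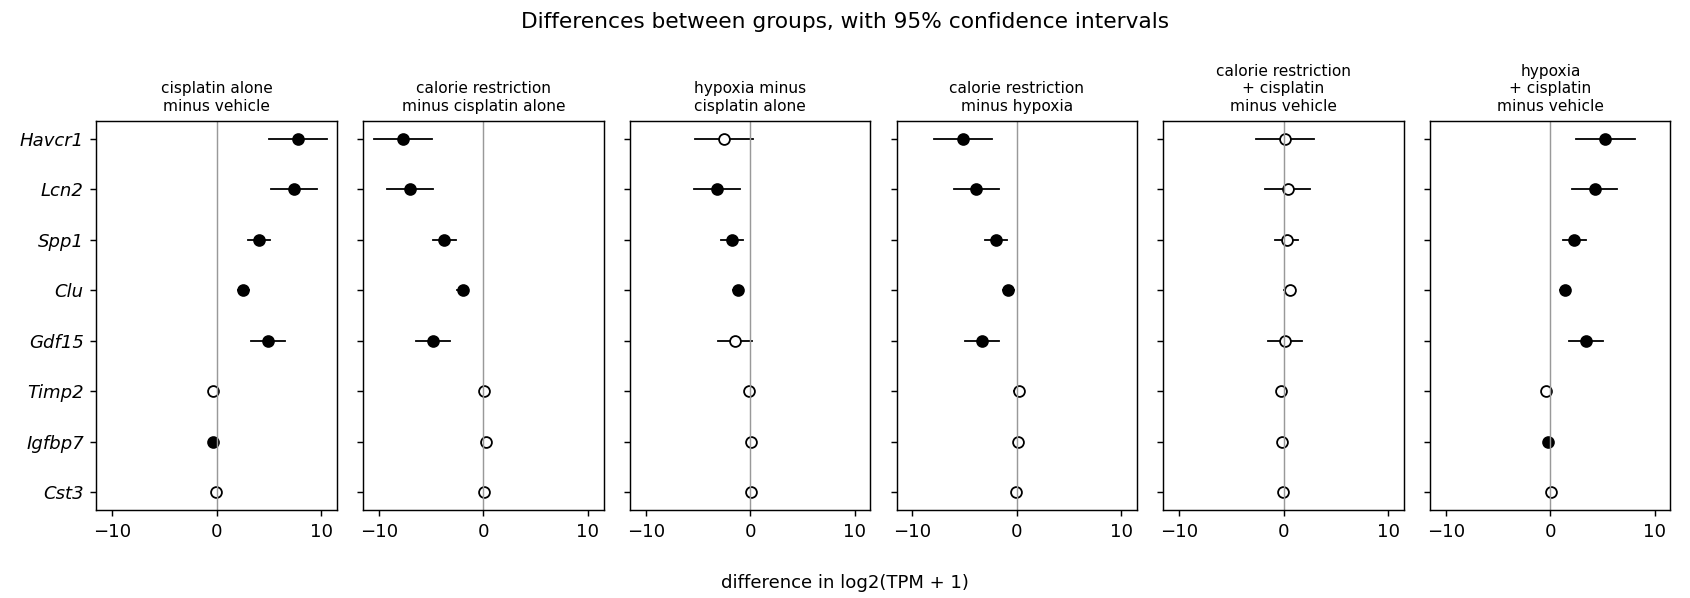
Difference in log2(TPM + 1) of each gene in the 6 comparisons, with 95% confidence intervals from limma; filled circles have an adjusted p under 0.05. Havcr1 was 7.79 higher after cisplatin alone than with vehicle, 0.12 higher with calorie restriction than with vehicle and 5.26 higher with hypoxia than with vehicle.

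With calorie restriction before the drug, Havcr1, Lcn2, Gdf15 and Spp1 lay at levels that overlapped the vehicle range, and Clu lay between the vehicle and cisplatin alone ranges. Havcr1 was at 1.94, 0.317, 0.989 and 0.518 TPM, Lcn2 at 2.43, 0.634, 1.19 and 0.717 TPM, and Gdf15 at 2.89, 1.93, 5.28 and 4.14 TPM. For each of these genes the 4 calorie restriction libraries overlapped the vehicle range and lay far below all cisplatin alone libraries. Spp1 was at 354, 329, 343 and 334 TPM, a narrower spread than that of the vehicle group. Clu was at 72.5, 76.4, 67.9 and 101 TPM. Against cisplatin alone, 5 of the 8 genes were called lower and 0 higher, where 37.4% of all genes tested were called lower and 29.8% higher. The groups did not overlap for 6 of the 8, against 64.8% of all genes. The differences were -7.67 for Havcr1, -7.03 for Lcn2, -4.78 for Gdf15, -3.75 for Spp1 and -1.97 for Clu, with limma adjusted p between 5.83e-05 and 0.000191. This comparison shares the cisplatin alone libraries with the one against vehicle, so the 2 are not independent.

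Igfbp7 stood at 562, 538, 575 and 566 TPM with calorie restriction, above all 4 cisplatin alone libraries. The difference of 0.22 (95% interval 0.02 to 0.42) missed the threshold at limma adjusted p = 0.0512, and was 0.06 with adjusted p = 0.513 under the rescaling. Timp2 (8.53, 8.31, 8.55 and 8.59 TPM) and Cst3 (80.3, 77.4, 76.3 and 80.4 TPM) lay within the cisplatin alone range. Their differences were 0.06 (95% interval -0.33 to 0.44) and 0.02 (-0.20 to 0.24), and both turned negative under the rescaling, to -0.09 and -0.14.

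Directly against vehicle, 0 of the 8 genes were called in the calorie restriction group in limma. Of all genes tested, 0.0133% were called higher and 0.04% lower, and 610 had an unadjusted p under 0.05. Of the 8, only Clu was under that unadjusted p (0.0251, adjusted p = 1). These results come from the fit of all 4 groups. A limma fit of only the calorie restriction and vehicle libraries called 49 of all genes higher and 31 lower. It put 2091 genes under an unadjusted p of 0.05. Every calorie restriction library lay above every vehicle library and below every cisplatin alone library for Clu. Its difference from vehicle was 0.60 (95% interval 0.09 to 1.11). Timp2 did not overlap the vehicle group either, in the other direction, at -0.26 (-0.65 to 0.12). Groups without overlap made up 9.16% of all genes tested, beside 2 of the 8. The intervals of Havcr1 (-2.67 to 2.91) and Lcn2 (-1.79 to 2.55) are wide and span differences of several fold. They rest on 1 spread shared by all 4 groups, so their width does not measure the spread of the 2 groups compared. Havcr1 ranged from 0.306 to 1.33 TPM with vehicle and 0.317 to 1.94 TPM with calorie restriction, but from 0.473 to 582 TPM with hypoxia. The voom fit of recovered counts also called 0 of the 8.

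The related lists were counted in the same way. With calorie restriction, 29.8% of all genes tested were called higher and 37.4% lower than with cisplatin alone. Of the 19 regulators, 17 were called lower with calorie restriction than with cisplatin alone and 0 higher. Against vehicle 0 of the 19 were called, in a comparison where few genes passed at all. Cdkn1a was at 4.38 ± 3.18 TPM, beside 1.02 ± 0.47 with vehicle and 177 ± 3.77 with cisplatin alone. Of 6 relatives of Igfbp7, 4 were called higher than with cisplatin alone, and of 18 other biomarkers 3 were called higher and 11 lower. Egf stood at 180 ± 18.7 TPM and Umod at 1181 ± 191 TPM. Macrophage markers summed to 41.1 to 67.7 TPM, and neutrophil markers to 0.642 to 3.77 TPM. Among the latter S100a9 had a mean of 1.18 TPM, S100a8 of 0.618 TPM and Retnlg of 0.163 TPM, each above its vehicle mean. Ltf, at a mean of 0.074 TPM, was below its vehicle mean of 0.151 TPM, and Mpo, Ly6g, Ngp and Camp were at 0. Against vehicle 0 of the 2 tested were called.

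In the hypoxia group the libraries ran from the vehicle range to the cisplatin alone range and beyond. Havcr1 was at 582, 51.0, 409 and 0.473 TPM in libraries 1 to 4, where library 1 was the highest of all 16 libraries and library 4 lay inside the vehicle range. Lcn2 was at 199, 28.4, 101 and 0.611 TPM, Gdf15 at 148, 53.4, 104 and 3.64 TPM, and Spp1 at 3013, 1324, 2642 and 336 TPM. Libraries 1 and 3 were high for each of these genes, library 2 was intermediate, and library 4 lay within the vehicle range. Clu was at 199, 95.2, 199.97 and 99.1 TPM, where library 4 lay above library 2 and above all vehicle libraries. The coefficient of variation over the 4 libraries was 108% for Havcr1 and Lcn2, 80.9% for Gdf15, 67.3% for Spp1 and 39.8% for Clu, but 4.30% for Igfbp7 and 12.9% for Cst3. Proximal tubule markers summed to between 3017 and 29671 TPM over the same libraries, macrophage markers to between 59.9 and 101 TPM and neutrophil markers to between 1.94 and 4.23 TPM. Of the neutrophil markers 1 of 2 tested (S100a9) was called higher than with vehicle. S100a9 had a mean of 1.54 TPM, S100a8 of 0.481 TPM and Retnlg of 0.294 TPM, and Mpo was at 0. Ltf had a mean of 0.068 TPM, below its vehicle mean of 0.151 TPM. The part of tissue makeup in these levels was not tested.

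Against cisplatin alone, 3 of the 8 genes were called lower in the hypoxia group (Clu, Spp1 and Lcn2) and 0 higher, where 13.1% of all genes were called lower and 16.4% higher. The groups did not overlap for the same 3 genes, against 15.5% of all genes. Clu was lower by a difference of -1.15 ± 0.24 (limma adjusted p = 0.00696), Spp1 by -1.74 ± 0.50 (0.0224) and Lcn2 by -3.16 ± 1.01 (0.0330). Havcr1 (-2.53, 95% interval -5.32 to 0.27, adjusted p = 0.150) and Gdf15 (-1.43, -3.06 to 0.19, adjusted p = 0.161) did not pass. For both, hypoxia library 1 was above every cisplatin alone library. Without hypoxia library 4 the same 3 genes were called, with differences of -0.99 for Clu, -1.06 for Spp1 and -1.73 for Lcn2. Leaving out any 1 cisplatin alone library lost the call of Lcn2 (adjusted p 0.0502 to 0.0713). Without hypoxia library 2 only Clu was called, and without hypoxia library 1 Havcr1 (-3.58) and Gdf15 (-2.01) were called as well.

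These calls were made with all 4 groups in the fit. When only the hypoxia and cisplatin alone libraries were fitted, limma called 0 of the 8 genes (adjusted p = 0.113 for Clu, 0.137 for Spp1 and 0.164 for Lcn2) and 0 genes in all, with 4273 under an unadjusted p of 0.05. With the title prefix as a term 0 of the 8 were called here. In cisplatin alone against vehicle, Lcn2, Clu, Spp1 and Gdf15 remained called with that term. The term rests on calorie restriction library 1 beside the rest of its group, so calls kept or lost with it cannot separate prefix from group. The only comparison of a library within the smaller set, calorie restriction library 1 beside cisplatin alone, showed Havcr1 at 1.94 TPM against 298 to 489 TPM.

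A position scale shows how the hypoxia libraries ranked genes. On it the mean of log2(TPM + 1) with vehicle is 0 and that with cisplatin alone is 1. Hypoxia library 1 stood at 1.08 for Havcr1, 1.06 for Gdf15, 0.93 for Lcn2, 0.85 for Spp1 and 0.75 for Clu. Library 3 had the same order at its ends, from 1.02 for Havcr1 to 0.75 for Clu, and library 2 ran from 0.77 for Gdf15 to 0.34 for Clu. Thus in libraries 1 to 3 Havcr1 and Gdf15 were nearest to, or past, the cisplatin alone mean and Clu was farthest from it. Library 4 reversed this: Clu stood at 0.36 and the other 4 between -0.03 and 0.07. This was not particular to hypoxia, since Clu stood at 0.19, 0.22, 0.15 and 0.37 in calorie restriction libraries 1 to 4. In calorie restriction library 4 the other 4 lay between -0.02 and 0.07. A joint position of all other genes tested was 0.96, 0.41, 0.65 and 0.04 in hypoxia libraries 1 to 4. It came from a least-squares fit in which genes that differed most between cisplatin alone and vehicle weighed most. It is therefore not the position of a typical gene. On the TPM scale the mean position over the 4 hypoxia libraries was 0.68 for Havcr1 and 0.63 for Gdf15 but 0.29 for Lcn2, 0.36 for Spp1 and 0.37 for Clu. No test was made of these positions.

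**Figure D3:**
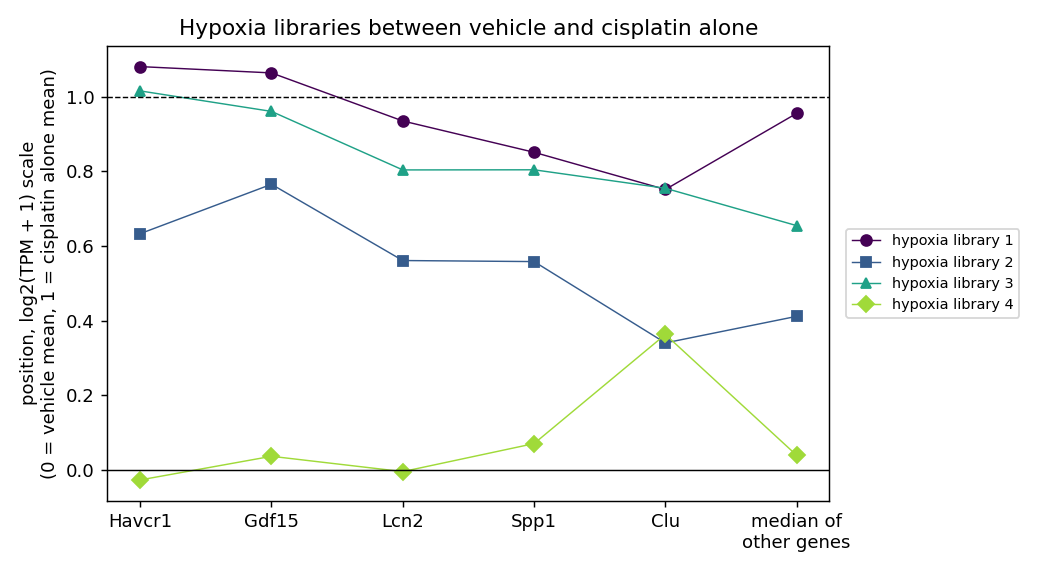
Position of each hypoxia library between the vehicle mean (0, solid line) and the cisplatin alone mean (1, dashed line) on the log2(TPM + 1) scale. Shown are the 5 genes that rose after cisplatin and a joint position of all other genes tested. The axis labels the joint position as a median of other genes, which is wrong. It is a least-squares fit in which genes with large differences weigh most. Libraries 1 and 3 lie at or near 1 for Havcr1 and Gdf15 (1.08 and 1.06 in library 1), library 4 lies near 0 except for Clu at 0.36.

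The ratio of Gdf15 to Lcn2, both in TPM, put numbers on that difference in order. It was 0.384, 0.482, 0.444 and 0.405 in the cisplatin alone libraries and 0.742, 1.88, 1.03 and 5.96 in the hypoxia libraries, so the groups did not overlap. With vehicle the ratio was 4.44, 5.91, 2.44 and 9.67 and with calorie restriction 1.19, 3.05, 4.45 and 5.78, where both genes were low and the ratio is imprecise. Without hypoxia library 4, the hypoxia ratios of 0.742 to 1.88 still lay above those of cisplatin alone. The ratio was chosen after its values were seen and is given without a test.

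**Figure D4:**
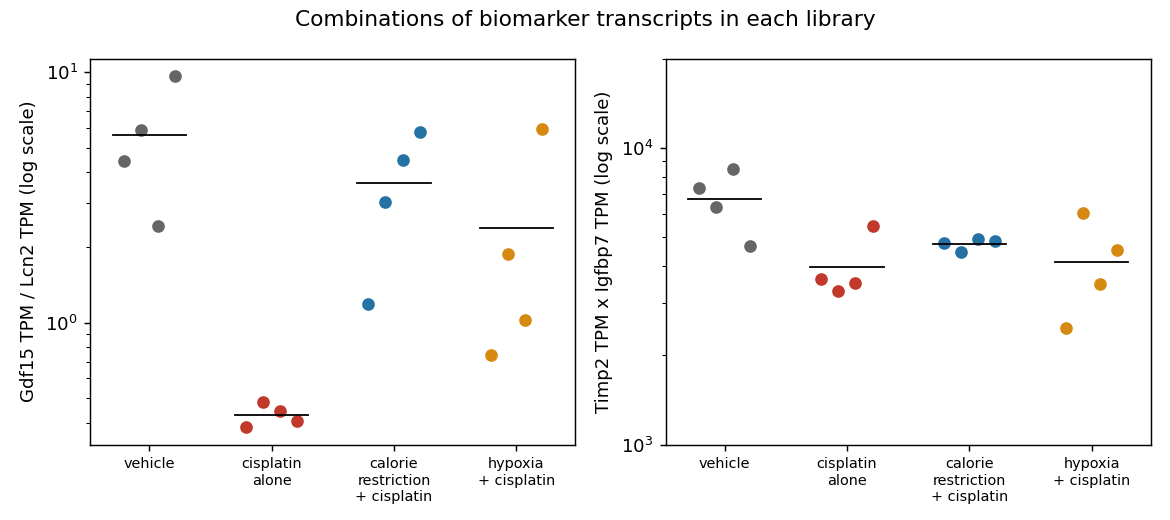
Ratio of Gdf15 to Lcn2 (left) and product of Timp2 and Igfbp7 (right) in each library, from TPM and on log axes; lines are group means. The cisplatin alone libraries lie between 0.384 and 0.482 on the ratio, below every other library, while on the product the 4 groups overlap.

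Against vehicle, 5 of the 8 genes were called higher in the hypoxia group and 1 lower, where 19.2% of all genes were called higher and 10.1% lower. Only Clu showed no overlap between the groups, against 15.2% of all genes tested. Havcr1 was higher by 5.26 ± 1.30, Lcn2 by 4.25 ± 1.01, Gdf15 by 3.44 ± 0.76, Spp1 by 2.31 ± 0.50 and Clu by 1.42 ± 0.24, with limma adjusted p between 0.00655 and 0.0159. Without hypoxia library 4 these differences were 7.09, 5.68, 4.53, 2.99 and 1.58. Without hypoxia library 3, Havcr1 (adjusted p = 0.0605), Lcn2 (0.0570) and Igfbp7 were not called. Igfbp7, at 491, 534, 541 and 532 TPM, was lower than with vehicle by a difference of -0.27 with limma adjusted p = 0.0463; the call was lost (adjusted p 0.0617 to 0.130) on leaving out vehicle library 1, 2 or 3 or hypoxia library 1, 2 or 3. Fitting the hypoxia and vehicle libraries alone called 0 of the 8, with an adjusted p of at least 0.134.

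Timp2 was at 5.03, 11.3, 6.44 and 8.52 TPM with hypoxia, which includes both the lowest Timp2 value of the experiment and one within the vehicle range. Its difference from vehicle was -0.42 (95% interval -0.80 to -0.04) with limma adjusted p = 0.0864, and -0.10 (-0.48 to 0.29) from cisplatin alone. Cst3, at 74.6, 98.0, 89.5 and 77.3 TPM, differed from vehicle by 0.04 (-0.19 to 0.26) and from cisplatin alone by 0.12 (-0.10 to 0.35). Neither passed the threshold in any of these comparisons.

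Calorie restriction and hypoxia were compared directly, since passing the threshold in one group and not in another is no test of a difference. Of the 8 genes, 5 were called lower with calorie restriction (Havcr1, Lcn2, Gdf15, Spp1 and Clu) and 0 higher, where 15% of all genes were called lower and 9.24% higher. None of the 8 was without overlap between the groups, against 9.8% of all genes, with hypoxia library 4 inside the calorie restriction range for Havcr1, Spp1, Gdf15 and Clu and just under it for Lcn2, and hypoxia library 2 inside it for Clu. The differences were -5.14 for Havcr1, -3.87 for Lcn2, -3.35 for Gdf15, -2.01 for Spp1 and -0.82 for Clu, and the limma adjusted p lay between 0.0275 and 0.0321. Without hypoxia library 4 all 5 were called, at -6.97, -5.30, -4.44, -2.69 and -0.98. Leaving out any 1 calorie restriction library, or hypoxia library 1 or 3, left 0 calls with an adjusted p of at least 0.0520 for each.

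Related genes were counted in the hypoxia group as well. Of all genes tested, 16.4% were called higher and 13.1% lower than with cisplatin alone, and 19.2% were called higher than with vehicle. Of the 19 regulators, 7 were called lower than with cisplatin alone and 0 higher, and 10 were called higher than with vehicle. Rela was at 16.3 ± 6.34 TPM and Cdkn1a at 114 ± 85.4 TPM, the latter not called against cisplatin alone (adjusted p = 0.184). Of 18 other biomarkers, 3 were called higher and 2 lower than with cisplatin alone, close to the shares over all genes. Among them were Timp1 (4.09 ± 4.26 TPM, lower) and Umod (657 ± 315 TPM, higher). Of the 6 relatives of Igfbp7, 1 was called higher (Igfbp4, 110 ± 40.1 TPM), also close to that share. Lrp2 was at 256 ± 185 TPM, higher than with cisplatin alone (adjusted p = 0.00565).

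The order of levels within a group also differed. With vehicle, Igfbp7 was the most abundant of the 8 at 635 ± 75.9 TPM, followed by Spp1 at 287 ± 87.6, Cst3 at 82.5 ± 8.85, Clu at 51.9 ± 7.60, Timp2 at 10.5 ± 1.505, Gdf15 at 3.16 ± 0.80, and Havcr1 and Lcn2 at 0.758 ± 0.514 and 0.666 ± 0.292, which did not differ beyond their spread. With cisplatin alone the order was Spp1 (4623 ± 772), Igfbp7 (481 ± 28.9), Havcr1 (383 ± 82.0), Clu (314 ± 57.7), Lcn2 (280 ± 27.0), Gdf15 (121 ± 22.1), Cst3 (77.7 ± 7.80) and Timp2 (8.22 ± 1.70). Havcr1 and Clu, and Clu and Lcn2, lay within each other's spread there. Havcr1 and Lcn2 thus went from the bottom of the list to the level of Clu, and Timp2 went from the fifth place to the last without passing a test.

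Across the 16 libraries, the genes whose log2(TPM + 1) followed each of the 8 most closely among 11284 genes were named as a description, with libraries that fall into high and low sets making correlations high throughout. Havcr1 was followed by Bcl2l1, Apaf1 and Ercc5 (Pearson r 0.995 each); Bcl2l1 and Apaf1 are genes of the apoptosis pathway and Ercc5 encodes a nuclease of nucleotide excision repair. Gdf15 was followed by Ier5, Psrc1 and Tnfrsf12a (r 0.995 to 0.996), and Ier5 was also first by Spearman rho (0.974). Lcn2 was followed by Krt20, a keratin, Mybl1 and Arg2 (r 0.996 to 0.997). Krt20 went from 0.304 TPM with vehicle to 406 TPM with cisplatin alone, a span like that of Lcn2.

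Clu was followed by Col4a1, a basement membrane collagen, with Ddhd1 and Slc35c1 (r 0.972 to 0.977), and Spp1 by Dlgap4, Sept8 and B4galnt1 (r 0.992 to 0.993). For the genes that hardly moved the closest followers were looser. They were Sptan1, Tanc1 and Usp25 for Cst3 (r 0.873 to 0.935), Lmo7, Ptgis and Mxra8 for Igfbp7 (r 0.911 to 0.938), and Pkd1, Epb41l2 and Adgrf5 for Timp2 (r 0.905 to 0.927). By Spearman rho, none of the 3 named followers of Havcr1, Lcn2, Clu, Spp1 or Igfbp7 was among the first 3.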

How the data were processed

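The RNA-seq libraries of mouse kidney numbered 16 in 4 groups, with groups from the labels for injection and preconditioning and replicates numbered in accession order. The 1 deposited table gives TPM per gene and library; the authors' unit was read from its column sums, since the labels name none. Per the submitters' processing notes, tools were STAR 2.5, Subread 1.5 and featureCounts, and the builds mm10 and GRCm38 are listed; no setting is given.

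The members and gene lists were chosen with earlier results of these data known. Positions came from GENCODE M21. The 15014 genes that reached 1 TPM in 4 or more libraries were tested on log2(TPM + 1) with limma 3.58.1 (R 4.3.3, statmod 1.5.0), all 16 libraries, group as the only term, trended robust variance, 2-sided, Benjamini-Hochberg adjustment over these genes, threshold 0.05. Read counts were recovered from TPM and exon length: of 32198 genes with reads, 76.31% (24571) were whole to within 0.0001 reads at the annotated length and the other 7627 at a length found by search. They give the depth, the voom alternative and the comparison of library pairs (16881 genes with a mean of 20 reads or more). Both steps were tested on simulated data.

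The 8 members were named whatever their result, with up to 4 genes per other list by smallest adjusted p, others where a result turned on them, and 3 genes most like each member. Marker lists for podocytes, endothelium, fibroblasts and mural cells, collecting duct, thick ascending limb, distal convoluted tubule and red blood cells are given in the closing section. Alternatives were a pseudocount of 0.1, no filter, rescaling without abundant, mitochondrial and red blood cell genes (composition), fits of only the groups compared, the title prefix as a term, voom, and leaving out each library. For calorie restriction with cisplatin against vehicle, the prefix term gave the same counts over all genes as leaving out calorie restriction library 1. There these 2 are not separate alternatives.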

Additional observations from a re-analysis of the deposited data

Results flagged for a closer look

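In groups of 4 libraries the highest or lowest value was compared with the rest by Dixon's criterion, for 8 genes in 4 groups (32 groups of values); chance alone marks about 1 in 20. It marked 3. Cst3 in vehicle library 4 was at 69.4 TPM, below the other 3 vehicle libraries (84.8 to 87.9 TPM). Igfbp7 in hypoxia library 1 was at 491 TPM, below 532 to 541 TPM in the rest. Timp2 in cisplatin alone library 4 was at 10.8 TPM, above 7.26 to 7.48 TPM in the rest, and is the library whose omission brought Timp2 past the threshold against vehicle. The spread of the hypoxia group in Havcr1, Lcn2, Spp1 and Gdf15 was not marked, since its values are spread out and no single one stands off.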

How the results depend on the processing

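The number of the 8 genes called stayed within 1.5 times its first value under every alternative for cisplatin against vehicle, calorie restriction against cisplatin alone, and calorie restriction with cisplatin against vehicle. The comparisons with the hypoxia group did not. For hypoxia against cisplatin alone, 0 were called with only the groups compared and 0 with the title prefix as a term, and leaving out 1 library gave 1 to 5. For calorie restriction against hypoxia, no filter, only the groups compared and the title prefix each gave 0, voom gave 3 (without Havcr1 and Lcn2), and leaving out 1 library gave 0 to 5. For hypoxia with cisplatin against vehicle, only the groups compared gave 0, voom gave 3 and leaving out 1 library gave 3 to 6. Over all genes, only the groups compared called 0 genes by limma for hypoxia against cisplatin alone (4273 at an unadjusted p under 0.05) and 0 for calorie restriction against hypoxia (4353), where the full fit called 4420 and 3642, and 11 against 4398 for hypoxia with cisplatin against vehicle. The cause was not tested.

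Changes of sign were all in differences that passed no threshold. Cst3 in cisplatin against vehicle was 0.068 under composition and 0.041 under voom. In calorie restriction against cisplatin alone, Cst3 was -0.14 and Timp2 -0.088 under composition and -0.11 and -0.064 under voom; leaving out 1 library gave -0.0098 to 0.0877 for Cst3. In hypoxia against cisplatin alone, Cst3 was -9e-04 under composition, and leaving out 1 library gave -0.28 to 0.066 for Timp2. In calorie restriction with cisplatin against vehicle, Havcr1 was -0.10 with the prefix as a term. There, leaving out 1 library gave -0.10 to 0.28 for Havcr1 and -0.078 to 0.29 for Gdf15. It gave -0.0080 to 0.33 for Timp2 in calorie restriction against hypoxia, and -0.042 to 0.096 for Cst3 in hypoxia with cisplatin against vehicle. Composition moved the share of calls that were higher from 44.4% to 33.4% in calorie restriction against cisplatin alone and from 55.5% to 32.2% in hypoxia against cisplatin alone. No paired analysis was possible because the labels number no replicates.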

Other observations

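Marker lists of the other kidney cells gave the setting of these transcripts. Against vehicle, cisplatin alone lowered all 15 proximal tubule markers, all 8 of the thick ascending limb and all 6 of the distal convoluted tubule in limma, and 6 of 10 of the collecting duct. Of 6 podocyte markers 2 were called higher and 2 lower, of 9 endothelial markers 2 higher and 5 lower, and of 9 tested fibroblast and mural markers 4 higher and 1 lower. Red blood cell markers (6 genes) summed to 25.4 to 36.2 TPM with vehicle, 0.705 to 2.24 TPM with cisplatin alone, 6.34 to 57.8 TPM with calorie restriction and 2.29 to 42.9 TPM with hypoxia. How far these changes in makeup bear on the biomarker levels was not tested.

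The summed TPM of the 8 biomarkers was 837 to 1255 with vehicle, 1032 to 1095 with calorie restriction, 5745 to 7585 with cisplatin alone, and 4712, 2195, 4093 and 1058 in hypoxia libraries 1 to 4.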
